A study of Homo sapiens with 5 samples.

Results

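The genes described here encode enzymes that make nucleotides and the ribose they are built on, in clones of Nalm6. Nalm6 is an established line derived from human acute lymphoblastic leukaemia of the B-cell precursor type. A list of 34 genes was named, covering the supply of phosphoribosyl pyrophosphate (PRPP), the purine and pyrimidine routes, the pentose phosphate pathway and one-carbon enzymes. A gene was taken up where a probe set of the array carried its symbol and no other, and 32 of the 34 were found this way among 18417 genes measured. ADSS2 was not analysed here, and the probe set of NME1 carries a further symbol and was left out. Every one of the 32 had a single probe set.

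Of the 5 clones, 3 expressed a short hairpin RNA (shRNA) against MondoA and 2 control clones a nonsense shRNA, with 1 array per clone. Whether the 3 clones share 1 hairpin sequence is not given in the sources used here. All clones were kept in 200 mg/dl glucose with 20% serum, and each array received target made from 200 ng of RNA. MondoA is the product of MLXIP, a partner of MLX that binds E-box motifs in DNA and is activated by glucose phosphates. Values are expression levels on the log2 scale from RMA (robust multi-array average), which removes background, equalises the arrays and summarises each probe set. Differences are MondoA shRNA minus control shRNA, and errors are the SD over n = 3 MondoA shRNA and n = 2 control clones unless another is named. Tests are limma's moderated test, two-sided, fitted over all 18417 genes, with adjustment by the Benjamini-Hochberg method. Levels of different genes were not ranked, because probe sets differ in brightness.

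PRPP is ribose phosphate carrying a pyrophosphate, and it is the common substrate on which purine rings are built and onto which pyrimidine and salvaged bases are loaded. Its ribose comes from glucose through the pentose phosphate pathway, whose oxidative arm also makes NADPH and whose non-oxidative arm exchanges sugar phosphates with glycolysis. Dividing lymphoblasts need both the synthesis and the salvage of nucleotides, and several of these enzymes are drug targets, inosine monophosphate dehydrogenase and dihydroorotate dehydrogenase among them.

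The labels were checked before the genes were compared. MLXIP read 6.42, 6.47 and 6.29 in the MondoA shRNA clones, against 6.42 and 6.42 in the control clones, a mean shift of -0.03 ± 0.06 (SE; adjusted p = 0.959 by limma). A lower level of the target RNA was thus not detected, and the directions below refer to the clones labelled MondoA shRNA. The MLXIP values of MondoA shRNA clone 1 and both control clones were exactly tied. The control SD was therefore 0, and the comparison rests on 3 distinct values. All 9 measured of 11 B-precursor markers had a mean above the median gene level of 4.15, with a list median from 8.96 to 9.09 in the MondoA shRNA clones and of 9.03 in both control clones. Within that list 5 of the 9 genes separated the groups, CD79A, CD79B and CD22 on the higher side and DNTT and RAG1 on the lower side, against 7.22% and 8.36% of genes above the median level. CD22, a B-cell surface receptor, read 7.14, 7.73 and 7.68 in the MondoA shRNA clones, against 6.15 and 6.35 in the control clones. CD79A, a chain of the B-cell receptor complex, read 8.46, 7.98 and 8.38 in the MondoA shRNA clones, against 7.38 and 7.35 in the control clones. DNTT, the terminal transferase of B and T precursors, read 9.15, 9.73 and 9.09 in the MondoA shRNA clones, against 10.57 and 10.47 in the control clones. The groups did not overlap for these markers, which lay in both directions, and their part in the results below was not tested. Of 20 measured markers of T and natural killer, myeloid, erythroid and megakaryocytic cells and fibroblasts, only NKG7 (mean 6.46) and COL1A1 (4.79) lay above it. No gene on the array passed an adjusted p of 0.05 by limma (0% of 18417, with 687 genes at an unadjusted p under 0.05), so each difference below is a measured value that did not pass.

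PRPS2 stood apart from every other member. It encodes a PRPP synthetase, and its paralogue PRPS1 encodes the other widely expressed isoform of the same enzyme. Both genes lie on the X chromosome, far apart. Their promoters are shown because these members carry the main contrast. Each sequence is the 250 bases before the RefSeq gene start in assembly GRCh38.p14, on the plus strand, at chrX:12791162-12791411 for PRPS2 and chrX:107628260-107628509 for PRPS1. Capitals would mark the E-box CACGTG, which occurs in neither.
PRPS2: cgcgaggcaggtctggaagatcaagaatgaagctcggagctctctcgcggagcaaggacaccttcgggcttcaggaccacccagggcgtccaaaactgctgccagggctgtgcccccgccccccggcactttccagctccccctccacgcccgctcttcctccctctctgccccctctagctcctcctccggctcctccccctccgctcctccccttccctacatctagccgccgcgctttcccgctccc
PRPS1: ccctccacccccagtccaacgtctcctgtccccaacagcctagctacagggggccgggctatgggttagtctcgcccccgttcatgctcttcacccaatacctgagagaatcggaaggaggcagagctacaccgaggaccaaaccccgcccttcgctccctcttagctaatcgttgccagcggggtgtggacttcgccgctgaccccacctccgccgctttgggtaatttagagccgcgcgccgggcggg

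The PRPS2 probe set (8166049) read 5.83, 6.56 and 5.93 in MondoA shRNA clones 1, 2 and 3, against 4.02 and 3.72 in control clones 1 and 2. The lowest MondoA shRNA clone was 1.81 above the highest control clone, and MondoA shRNA clone 2 was the highest of the 5. The means were 6.11 ± 0.40 in the MondoA shRNA clones and 3.87 ± 0.21 in the control clones. This is 2.24 ± 0.29 (SE) higher, or 4.71-fold, and the 95% interval spans 1.39 to 3.08. By limma the unadjusted p was 0.00239 and the adjusted p was 0.608. The adjusted p was 0.00387 when genes with values tied between arrays were left out, and blocking on the replicate number gave an unadjusted p of 0.0522. Both control values lay below the median gene level, and whether they exceed background was not assessed, so the fold may understate the change in RNA.

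PRPS1 showed no such step. It read 8.66, 9.35 and 8.83 in MondoA shRNA clones 1, 2 and 3, against 9.09 and 8.89 in control clones 1 and 2. The groups overlapped, and the means lay -0.05 ± 0.26 (SE) apart (95% interval -0.79 to 0.70). Among the MondoA shRNA clones, however, both genes had the same order, with clone 1 lowest and clone 2 highest, and in both genes control clone 1 was above control clone 2. The shares of genes above the median level with each of these traits are given below.

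The within-array log ratio of PRPS2 to PRPS1 varied little inside a group. It was -2.82, -2.79 and -2.90 in the MondoA shRNA clones, against -5.07 and -5.17 in the control clones. Only its change is read here, since the probe sets differ in brightness. The SD of the ratio was 0.06 in the MondoA shRNA clones and 0.07 in the control clones, while the SD of PRPS2 alone was 0.40 and 0.21 in those groups. A high clone 2 was not particular to this pair. The range over the MondoA shRNA clones was 0.73 for PRPS2 and 0.69 for PRPS1. It was 0.75 for ADA and 0.86 for HPRT1, also with clone 2 highest. Ratios of other gene pairs were not computed, so the small SD does not set PRPS2 and PRPS1 apart. The ratio changed by 2.28 between the groups, or 4.86-fold, and its values did not overlap. The exact permutation test, two-sided over the 5 clones, gave p = 0.2. Its two-sided p is the smaller one-sided p doubled, and 0.2 is the smallest value this form allows with 5 clones.

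**Figure D1:**
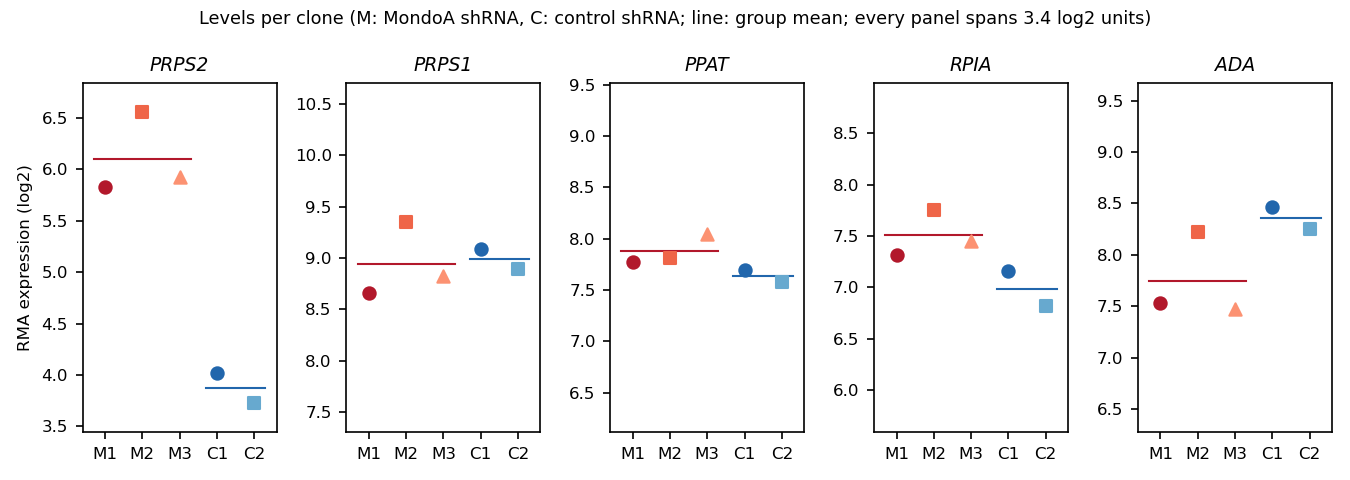
RMA expression (log2) of PRPS2, PRPS1, PPAT, RPIA and ADA in each clone; M1 to M3 are MondoA shRNA clones and C1 and C2 control clones, horizontal lines are group means, and every panel spans the same log2 range. PRPS2 lies 1.81 or more higher in each MondoA shRNA clone than in either control clone, whereas PRPS1 overlaps between the groups and PPAT, RPIA and ADA separate by 0.16 or less.

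The other members of the PRPP group are PRPSAP1 and PRPSAP2, which encode synthetase-associated proteins that form complexes with the catalytic subunits and are known to restrain them. PRPSAP1 read 6.62, 6.98 and 6.75 in the MondoA shRNA clones, against 6.99 and 6.75 in the control clones. PRPSAP2 read 7.11, 7.57 and 7.13 in the MondoA shRNA clones, against 7.13 and 7.00 in the control clones. Neither separated the groups, with differences of -0.09 ± 0.15 and 0.20 ± 0.18 (SE), and the median over the PRPP group was 0.08. That median was -0.068 without MondoA shRNA clone 2 and 0.191 without MondoA shRNA clone 1, so its sign rests on single arrays. In all 4 genes of the PRPP group MondoA shRNA clone 1 was the lowest and clone 2 the highest of the MondoA shRNA clones, and control clone 1 was above control clone 2. Over genes above the median level, clone 1 was the lowest in 47.0% and clone 2 the highest in 46.3%. Control clone 1 was the higher control in 51.2% of them. Tied clones were not counted, and ties are more common over all genes than among the members.

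The neighbours of PRPS2 on the X chromosome were examined for a shift of the whole segment. Among the 5 nearest measured protein-coding genes on each side, in RefSeq order, differences ran from -0.24 to 0.16. TLR7 and TLR8, the Toll-like receptor genes that follow PRPS2, differed by -0.03 and 0.08, with every clone between 2.19 and 2.48. FRMPD4, the gene before it, differed by -0.06. Only 2 of the 10 neighbours, HCCS and MSL3, had a mean above the median gene level, and they differed by 0.16 and -0.22 with overlapping groups. For the other 8 a shift in RNA may not be visible at their level. The 1 neighbour that separated the groups, ARHGAP6, differed by -0.24 with a gap of 0.03 between the groups.

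**Figure D2:**
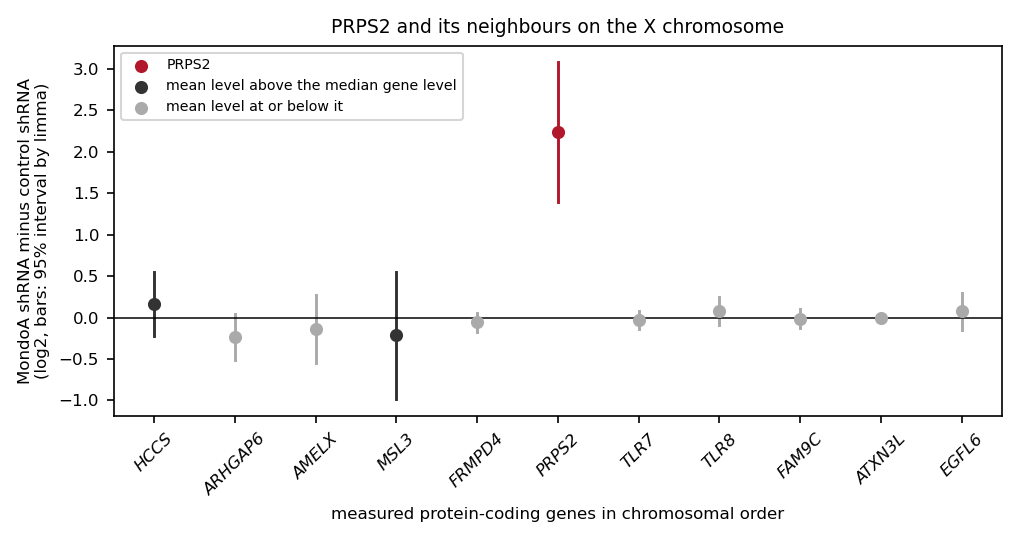
Difference between MondoA shRNA and control shRNA clones (log2, bars are 95% intervals by limma) for PRPS2 and the 5 nearest measured protein-coding genes on each side, in chromosomal order; dark grey marks neighbours whose mean lies above the median gene level. PRPS2 stands at 2.24 and its neighbours between -0.24 and 0.16.

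Over all 32 members, 18 differences were above 0 and 14 below, with a median of 0.03, against a median of 0.00 over all genes and of 0.01 over the 9208 genes above the median level. A difference of at least 1 in either direction was seen in 1 member (PRPS2, or 3.12%), against 0.217% of all genes. At an unadjusted p under 0.05 by limma stood 1 member on the higher side, again PRPS2, against 1.55% of all genes, and 0 members on the lower side, against 2.18%. A difference of at least 0.5 was seen in 3 members (PRPS2, ADA and RPIA, or 9.38%), against 1.73% of all genes. The genes above the median level were not counted by size, so these size shares are set beside all genes, dim ones included. Every MondoA shRNA clone was above both control clones in 3 members (PRPS2, PPAT and RPIA, or 9.38%), against 4.85% of all genes and 7.22% of genes above the median level. Every MondoA shRNA clone was below both in 1 member (ADA, or 3.12%), against 5.18% of all genes and 8.36% of those above the median level. Apart from CTPS2, every member had a mean over all clones above that level. PRPS2 reached it only through its MondoA shRNA clones, since its control clones read 4.02 and 3.72 beside a level of 4.15. Its place among genes above that level is therefore not independent of its separation. A share of 9.38% beside 7.22% rests on 3 genes and is close to the background.

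**Figure D3:**
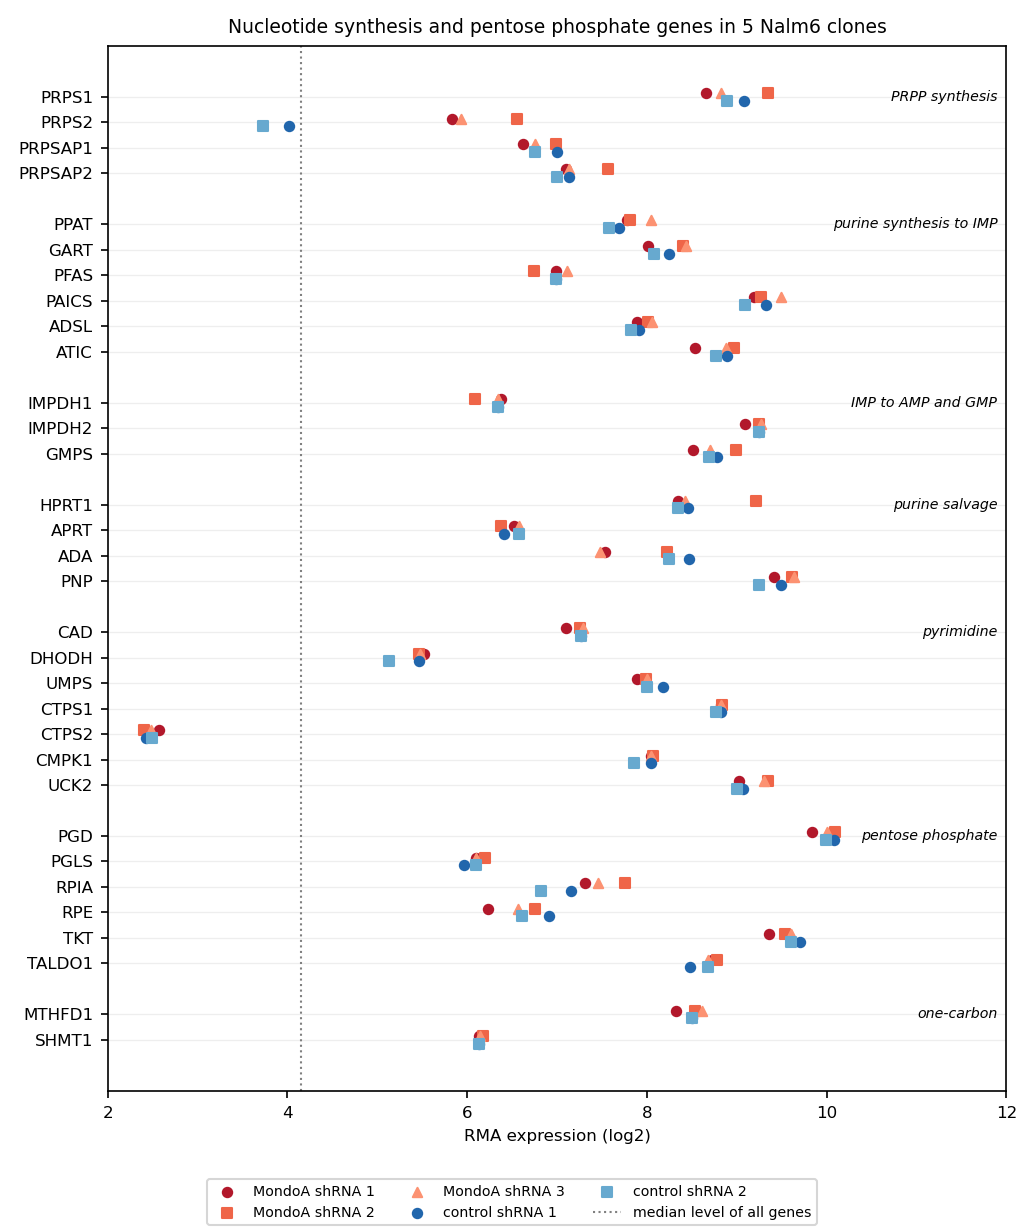
RMA expression (log2) of the 32 members in each clone, grouped by branch, with MondoA shRNA clones in red shades drawn above control clones in blue shades; the dotted line is the median level of all genes, 4.15. Most members overlap between the groups, PRPS2 has its control clones apart at the left, and CTPS2 is the member whose clones all lie left of the dotted line.

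The route to inosine monophosphate (IMP) builds the purine ring on PRPP in successive steps, and 4 of its 6 genes had differences above 0 (median 0.11, or 0.012 without control clone 2, 0.033 without MondoA shRNA clone 3 and 0.188 without control clone 1). PPAT encodes the amidotransferase of the first committed step, which uses PRPP directly. It read 7.78, 7.81 and 8.05 in the MondoA shRNA clones, against 7.69 and 7.58 in the control clones. The groups did not overlap, by a margin of 0.08, and the difference was 0.24 ± 0.11 (SE; unadjusted p = 0.0971 by limma). PAICS, whose enzyme carries out the carboxylation and ligation in mid route, read 9.20, 9.27 and 9.49 in the MondoA shRNA clones, against 9.33 and 9.09 in the control clones. PPAT and PAICS lie head to head on chromosome 4, and in both genes MondoA shRNA clone 3 was the highest and control clone 2 the lowest, although PAICS overlapped between the groups. ADSL on chromosome 22 and PNP on chromosome 14 had the same highest and lowest clones. The share of all genes with these clones at the ends was not counted.

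The remaining genes of this route overlapped too. GART, which encodes a trifunctional enzyme of the early and middle steps, differed by 0.12 ± 0.17 (SE). ADSL, the lyase that also acts on the way to AMP, differed by 0.12 ± 0.07 (SE). PFAS, the amidotransferase of the fourth step, and ATIC, which closes the ring, differed by -0.04 and -0.04. In 5 of the 6 genes MondoA shRNA clone 3 was the highest of the MondoA shRNA clones. The share over genes above the median level was 22.1%, with tied clones not counted.

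E-box motifs were looked for in these promoters because MondoA and its relatives bind CACGTG. The motif reads the same on both strands, and RefSeq promoters were matched for 30 of the 32 members. At least 1 CACGTG was present in the 250 bases before a start of 4 members (PPAT, ATIC, DHODH and MTHFD1, or 13.3%), against 7.73% of 27305 genes with a RefSeq promoter. That background is wider than the 18417 genes measured, and genes above the median level were not counted apart. The share of the members rests on 4 genes, and its distance from the background was not tested. Of the 4 members that separated the groups, PPAT holds the motif and PRPS2, RPIA and ADA do not in this window. The PPAT window is shown as the member with both, at chr4:56435616-56435865 on the minus strand of GRCh38.p14, with the motif in capitals, beginning 182 bases before the start.
PPAT: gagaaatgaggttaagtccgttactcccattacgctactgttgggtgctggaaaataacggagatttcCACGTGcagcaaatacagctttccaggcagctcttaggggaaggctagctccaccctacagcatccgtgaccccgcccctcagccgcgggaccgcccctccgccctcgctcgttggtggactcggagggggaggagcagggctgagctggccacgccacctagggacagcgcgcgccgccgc

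From IMP the route divides towards AMP and GMP. IMPDH1 and IMPDH2 encode the dehydrogenases that commit IMP to guanine nucleotides, and GMPS encodes the synthase that follows. IMPDH2 read 9.09, 9.24 and 9.27 in the MondoA shRNA clones, against 9.24 and 9.24 in the control clones. All 3 genes had differences just below 0, of -0.07 for IMPDH1, -0.04 for IMPDH2 and -0.0045 for GMPS, with overlapping groups. The 95% interval of IMPDH2 ran from -0.23 to 0.15, and that of IMPDH1 from -0.38 to 0.24.

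Salvage recycles purine bases and nucleosides, and 3 of its 4 genes had differences above 0 (median 0.09, or 0.021 without MondoA shRNA clone 2 and 0.052 without MondoA shRNA clone 3). ADA encodes adenosine deaminase, which turns adenosine and deoxyadenosine into inosines and is required for lymphocyte survival. It read 7.54, 8.22 and 7.47 in MondoA shRNA clones 1, 2 and 3, against 8.47 and 8.25 in the control clones. MondoA shRNA clones 1 and 3 were clearly below the control clones, while clone 2 lay 0.03 below the lower of them. The means differed by -0.61 ± 0.29 (SE; 95% interval -1.47 to 0.24, unadjusted p = 0.114 by limma). PNP, the phosphorylase that acts on the inosine ADA forms, differed by 0.19 ± 0.12 (SE), with overlapping groups. Its difference was 0.064 without control clone 2 and 0.309 without control clone 1.

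HPRT1 encodes the transferase that loads hypoxanthine and guanine onto PRPP. It read 8.35, 9.21 and 8.42 in MondoA shRNA clones 1, 2 and 3, against 8.46 and 8.34 in the control clones. MondoA shRNA clone 2 alone was high and the other 4 clones lay within 0.12 of each other. The difference of 0.26 was -0.02 without that clone. APRT, which does the same for adenine, differed by 0.0033 ± 0.091 (SE).

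Pyrimidine synthesis builds the ring before it meets PRPP, and its 7 measured genes differed by -0.13 to 0.19 (median 0.03), and the groups overlapped in each of them. CAD, the trifunctional enzyme of the opening steps, read 7.10, 7.26 and 7.29 in the MondoA shRNA clones, against 7.26 and 7.26 in the control clones. DHODH, the mitochondrial dehydrogenase of the route, read 5.52, 5.46 and 5.47 in the MondoA shRNA clones, against 5.46 and 5.12 in the control clones. Its difference of 0.19 was 0.02 without control clone 2, the lowest of the 5. UMPS, which joins orotate to PRPP and forms UMP, differed by -0.13 ± 0.07 (SE).

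CTPS1 encodes the CTP synthase known to be needed for lymphocyte proliferation. Its SD across the MondoA shRNA clones was the smallest of the 32 members, but it rests on exact ties. MondoA shRNA clones 1 and 3 and control clone 1 had the same value. CTPS1 read 8.82, 8.83 and 8.82 in the MondoA shRNA clones, against 8.82 and 8.77 in the control clones. The interval of its difference ran from -0.02 to 0.08. Its paralogue CTPS2 read between 2.40 and 2.58 in the MondoA shRNA clones and 2.42 and 2.49 in the control clones, below the median gene level throughout. The kinase genes CMPK1 (UMP and CMP) and UCK2 (uridine and cytidine salvage) differed by 0.11 ± 0.07 and 0.19 ± 0.12 (SE). The CMPK1 difference was 0.008 without control clone 2 and 0.203 without control clone 1.

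**Figure D4:**
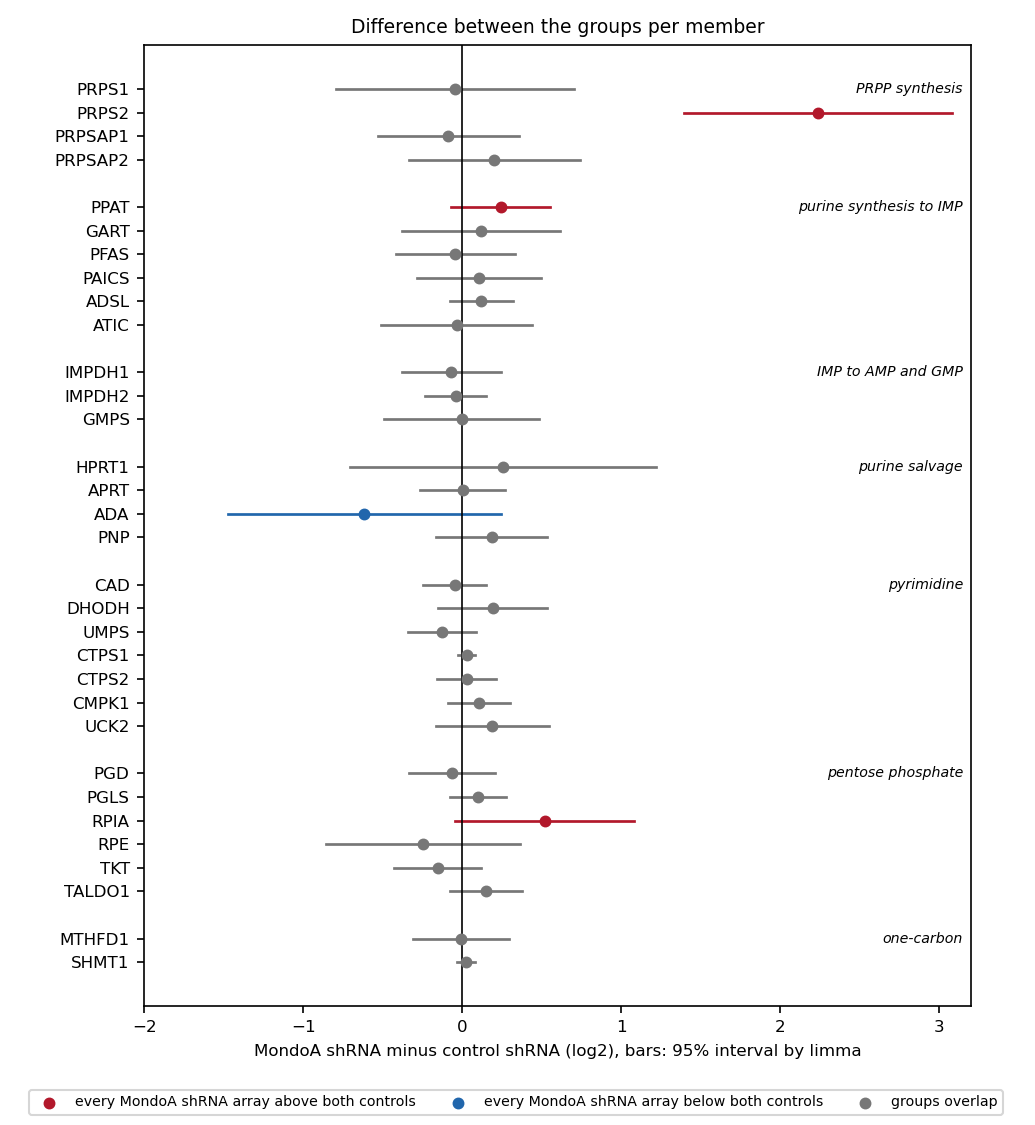
Difference between MondoA shRNA and control shRNA clones per member (log2, points) with 95% intervals by limma (bars), by branch; red and blue mark members in which every MondoA shRNA clone lay above or below both control clones, grey those that overlap. The interval of PRPS2 alone excludes 0, at 1.39 to 3.08, and RPIA at 0.52 and ADA at -0.61 follow in size.

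The pentose phosphate genes went both ways, 3 above 0 and 3 below, with a median of 0.02. RPIA encodes ribose 5-phosphate isomerase, which makes the ribose phosphate that PRPP synthetases use. It read 7.32, 7.76 and 7.45 in the MondoA shRNA clones, against 7.16 and 6.82 in the control clones. The groups were 0.16 apart, and the means differed by 0.52 ± 0.19 (SE), or 1.43-fold (95% interval -0.04 to 1.08, unadjusted p = 0.0621 by limma). RPE encodes the epimerase that acts on the same substrate, ribulose 5-phosphate, and sends it towards xylulose 5-phosphate. It read 6.23, 6.76 and 6.56 in the MondoA shRNA clones, against 6.91 and 6.61 in the control clones, a difference of -0.25 ± 0.21 (SE) with overlapping groups. The RPE difference was -0.096 without control clone 1, -0.396 without control clone 2 and -0.103 without MondoA shRNA clone 1. Neither the RPIA nor the RPE difference passed the test.

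Of the oxidative arm, PGD, which yields NADPH and ribulose 5-phosphate, read 9.84, 10.1 and 10.0 in the MondoA shRNA clones, against 10.1 and 10.0 in the control clones. PGLS, the lactonase before it, differed by 0.10 ± 0.06 (SE). Of the non-oxidative arm, the transketolase gene TKT read 9.36, 9.53 and 9.60 in the MondoA shRNA clones, against 9.70 and 9.60 in the control clones. Its highest MondoA shRNA clone stood at the level of control clone 2, so the groups overlapped narrowly. The transaldolase gene TALDO1 differed by 0.15 ± 0.08 (SE). The one-carbon genes MTHFD1, which supplies formyl groups for the purine ring, and SHMT1, a serine hydroxymethyltransferase of the cytosol, differed by -0.01 and 0.02.

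The SD among the MondoA shRNA clones was larger than the difference between the groups in 18 of 32 members, and the SD among the control clones in 12. These counts were not made over all genes, so they do not set the members apart. In 6 members both control clones had the same value, which makes their control SD 0. The median SD of a member was 0.15 among the MondoA shRNA clones and 0.09 among the control clones, against 0.13 and 0.05 over genes above the median level. MondoA shRNA clone 1 was the lowest MondoA shRNA clone in 22 of 32 members (68.8%), against 47.0% of genes above the median level. Clone 2 was the highest in 17 (53.1%), against 46.3%, and clone 3 in 12 (37.5%), against 22.1%. Control clone 1 was above control clone 2 in 22 members (68.8%), against 51.2% of genes above the median level. A clone tied for the lowest or highest place was not counted. All 5 values were distinct in 19 of 32 members, against 4301 of all 18417 genes. The control clones were tied in 6 members, against 2146 of the 9208 genes above the median level. The shares of members and of these genes are therefore not on an equal footing, and shares without ties were not counted. The median deviation of the members from their 5-array means was -0.08, 0.08 and 0.04 in MondoA shRNA clones 1, 2 and 3, against 0.02 and -0.04 in control clones 1 and 2. Over genes above the median level the same medians were -0.04, 0.03 and 0.00 in the MondoA shRNA clones, against 0.00 and -0.01 in the control clones, with the same clones lowest and highest.

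**Figure D5:**
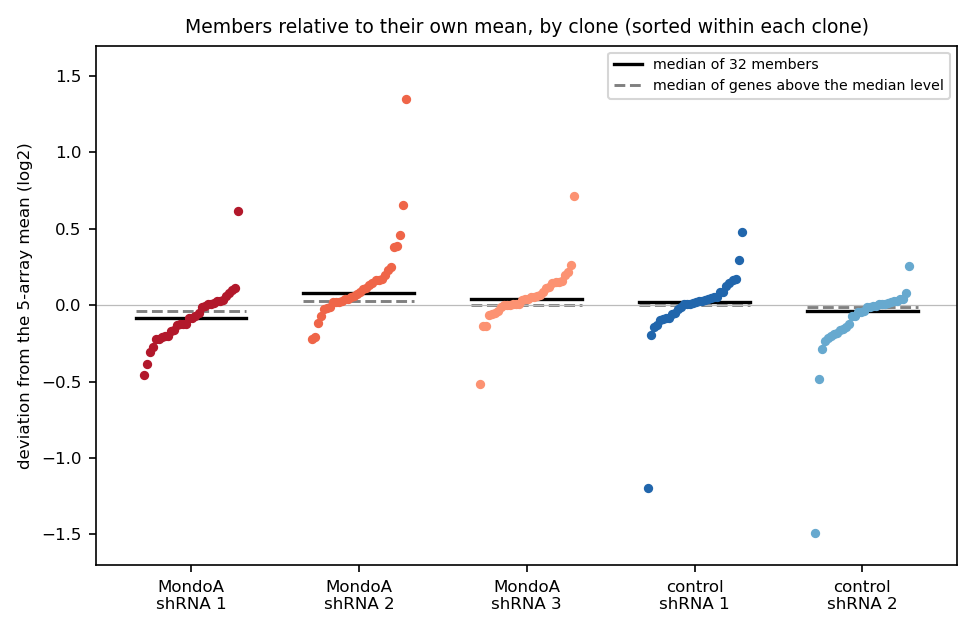
Deviation of each of the 32 members from its own 5-array mean (log2), by clone and sorted within the clone; solid lines are the medians of the members and dashed lines those of genes above the median level. The members' median is lowest in MondoA shRNA clone 1 (-0.08) and highest in clone 2 (0.08), and the extreme points, at up to 1.35 in the MondoA shRNA clones and down to -1.49 in the control clones, are PRPS2.

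MYC, a known activator of nucleotide synthesis genes, was set beside the members after its values were seen. It read 9.51, 10.2 and 9.92 in MondoA shRNA clones 1, 2 and 3, against 9.90 and 9.81 in the control clones. MondoA shRNA clone 1 was thus the lowest and clone 2 the highest, as in the PRPP group and in the medians over genes above the median level. The means of the MondoA shRNA and control clones differed by 0.02. The part of MYC, or of the overall shift of an array, in the spread of the members was not tested.

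A wider list of 76 further genes was compared, from pentose metabolism, nucleotide synthesis, salvage, breakdown and transport, and folate, methionine, asparagine and glutamine metabolism, of which 68 were measured and 41 had a mean above the median gene level. Their median difference was 0.03, with 43 above 0 and 17 below. Every MondoA shRNA clone was above both control clones in 8 (11.8%) and below both in 1 (1.47%), beside the backgrounds of 4.85% and 5.18% of all genes and of 7.22% and 8.36% of genes above the median level. At an unadjusted p under 0.05 by limma stood 1 higher, TK2, and 1 lower, GLUL, each 1.47% of the list, beside 1.55% and 2.18% of all genes. Each share rests on 1 gene and is close to the background, and no gene of the list differed by 0.5 or more. TK2 encodes the mitochondrial thymidine kinase and read 4.79, 4.85 and 4.79 in the MondoA shRNA clones, against 4.43 and 4.33 in the control clones. Its difference was 0.43 ± 0.04 (SE; adjusted p = 0.436 by limma). GLUL encodes glutamine synthetase, whose product donates nitrogen to both ring systems, and read 9.41, 9.26 and 9.33 in the MondoA shRNA clones, against 9.81 and 9.66 in the control clones. Its difference was -0.40 ± 0.07 (SE; adjusted p = 0.833 by limma).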

How the data were processed

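Affymetrix whole-transcript arrays were measured in 5 Nalm6 clones. The authors made the deposited log2 values with RMA in Affymetrix Expression Console 1.1, per the submitters' processing notes, giving 1 value for each probe set. The base of the logarithm is not given in the sources used here and was taken as 2. They cover 33297 probe sets without gaps. Detection calls and scan dates were not used here. Precision is limited by having 5 arrays.

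Gene symbols came from the platform annotation (1 symbol for 19460 probe sets, several for 1754, none for 12083), and chromosomes, gene order and promoter sequences from RefSeq (GRCh38.p14), where 19426 probe sets matched by Entrez number. Where 769 genes had several probe sets, the one with the highest mean was kept. Genes were tested with limma 3.58.1 in R 4.3.3, with a threshold of 0.05. The p-values set each difference against the spread between clones as moderated by limma, and exact ties between arrays lower that spread in some genes.

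The members, branches, wider list and tests were chosen with earlier results of these data known. All members found are named, as are MLXIP, genes of the wider list at an unadjusted p under 0.05 or a difference of at least 0.5, and the 5 nearest measured protein-coding genes on each side of PRPS2. MYC, NKG7, COL1A1 and the B-precursor markers given with values were named after their values were seen. The alternatives left out each array, used the replicate number as a block, normalised or centred the gene table again, averaged or kept all probe sets, left out dim genes or genes with tied values, weighted the arrays (statmod 1.5.0), changed the prior variance or dropped the moderation. Same-numbered clones are linked by nothing in the labels, so the numbers were not used as pairs.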

Additional observations from a re-analysis of the deposited data

How the results depend on the processing

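With 1 array left out, the PRPS2 difference of 2.24 ran from 2.008 to 2.383 and its ratio to PRPS1 changed by 2.228 to 2.334. No alternative turned the direction of either. PRPS2 passed the adjusted threshold in 1 alternative, without tied values (difference 2.235, adjusted p = 0.00387 by limma), which makes 1 member past it in place of 0. That alternative keeps 19 of the members and favours variable genes. Over all alternatives the adjusted p of PRPS2 by limma ran from 0.00387 to 0.828.

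Over all genes the count past the adjusted threshold by limma was 0. Leaving out tied values gave 60, a second quantile normalisation 2, centring 2 and an unmoderated model 3. Dropping 1 array gave 0 to 752 (752 without control clone 1 and 454 without control clone 2). In those fits the remaining control clone is assumed to vary like the MondoA shRNA clones. At an unadjusted p under 0.05 the count of 687 became 1103 after a second quantile normalisation and 1263 with weights for the arrays, and dropping 1 array gave 586 to 1987. The 1 member at that level became 5 after a second quantile normalisation (PRPS2, UCK2 and RPIA higher, ADA and TKT lower, beside 5.99% of all genes in that fit), 4 with weights (beside 6.86%), 3 of 19 when ties were left out (beside 12.8%) and 2 after centring (beside 4.27%). Dropping 1 array gave 1 to 4. The 4 were PRPS2, DHODH, CTPS1 and CMPK1, without control clone 1, where 10.8% of all genes stood at that level. At a size of at least 0.5 in place of 1 there were 3 members (9.38%, beside 1.73% of all genes).

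The replicate number as a block kept 660 genes at an unadjusted p under 0.05 and 0 past the adjusted threshold. The 1 member at that level was then PGLS, with PRPS2 at a difference of 2.325 (unadjusted p of 0.0522, adjusted p of 0.828 by limma). Nothing but a number links those clones. Deviations of same-numbered clones from their group means correlated at -0.306 and -0.244 across 9208 genes, which are not independent, and with a pair of controls each control deviation mirrors the other. Under the replicate block PRPS1 was 0.013, GMPS 0.013 and APRT -0.040, each a turned sign. APRT was also -0.003 with the arrays centred. With array weights PFAS was 0.065, ATIC 0.013, IMPDH2 0.002 and MTHFD1 0.071.

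Of 466 member values under the 15 alternatives, 30 changed sign, in 14 members whose differences were at most 0.26 in size. With 1 array left out these ran from -0.249 to 0.098 for PRPS1, -0.21 to 0.034 for PRPSAP1, -0.125 to 0.058 for PFAS, -0.010 to 0.224 for PAICS, -0.124 to 0.094 for ATIC, -0.123 to 0.021 for IMPDH1, -0.075 to 0.014 for IMPDH2 and -0.132 to 0.105 for GMPS. They ran from -0.019 to 0.412 for HPRT1, -0.080 to 0.087 for APRT, -0.085 to 0.008 for CAD, -0.016 to 0.069 for CTPS2, -0.121 to 0.006 for PGD and -0.072 to 0.075 for MTHFD1. For members that separated the groups, leaving out a clone could not turn the sign. The pyrimidine median of 0.03 was 0.066 over genes above the median level, 0.108 when ties were left out and 0.008 to 0.069 on dropping 1 array. The pentose phosphate median of 0.02 was -0.109 without tied values, where fewer of its genes remain. On dropping 1 array the medians ran from -0.068 to 0.191 for PRPP synthesis, 0.012 to 0.188 for the route to IMP, -0.075 to 0.014 from IMP to AMP and GMP, 0.021 to 0.124 for salvage, -0.027 to 0.061 for the pentose phosphate genes, -0.023 to 0.055 for one-carbon genes and 0.006 to 0.096 over all members. The causes of the other changes were not tested.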
